A study of Mus musculus with 50 samples.

Results

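The genes described here are 9 genes by which microglia, the resident macrophages of the brain, are recognised in expression data, the 3 chains of complement C1q among them. They are C1qa, C1qb, C1qc, Csf1r, Tyrobp, Fcer1g, Ctss, Laptm5 and Cd68. A probe set was taken where its only gene symbol in the platform annotation was one of these, which gave 14 of 12488 probe sets and 9 of 8251 genes. They were followed through 50 oligonucleotide arrays of brain RNA from mice aged 8 weeks. In each of neocortex and hippocampus there were 10 S1P2-KO mice and 5 S1P3-KO mice, lacking one or the other receptor for the signalling lipid sphingosine 1-phosphate, and 10 wild-type mice. Males and females were equal in number (5 of each sex) among S1P2-KO and wild-type mice, whereas S1P3-KO mice were 2 males with 3 females. The submitters describe spontaneous seizures in S1P2-deficient mice at 4 to 7 weeks of age and none in S1P3-deficient mice. The strain background and the deleted part of each gene are not given in the sources used here. Every array measured a whole dissected tissue, so fewer microglia and less RNA per microglial cell cannot be told apart.

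Microglia settle in the brain before birth and renew themselves there. Csf1r is the receptor tyrosine kinase for the growth factors CSF1 and IL-34, and microglia depend on it to survive. C1qa, C1qb and C1qc encode the chains of C1q, the recognition molecule that starts the classical complement cascade and tags synapses for removal in the developing and ageing brain. Tyrobp (DAP12) and Fcer1g (the common gamma chain of Fc receptors) are membrane adaptors with a cytoplasmic activation motif, and pass on signals of receptors such as TREM2 and the Fc receptors. Ctss encodes cathepsin S, a lysosomal protease, Laptm5 a lysosomal membrane protein of blood-derived and related cells, and Cd68 a lysosomal glycoprotein of phagocytes. In healthy brain these transcripts come mainly from microglia and, in smaller part, from macrophages along vessels and meninges.

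C1qb, C1qc and C1qa are 3 adjacent protein-coding genes on chromosome 4 in the RefSeq annotation of GRCm38.p6. For 6 of the 9 genes the 250 bases before the RefSeq start were searched on both strands for 3 motifs. These were AGGAAG, a core bound by the myeloid factor PU.1 and other ETS factors, GAAA followed by any 2 bases and GAAA again, bound by interferon regulatory factors, and TGAGTCA, bound by AP-1. AGGAAG was found in 4 of the 6 windows (C1qb, C1qc, Laptm5 and Fcer1g) and in 29.5% of all 32851 windows of that length. The paired GAAA was found in Ctss alone and in 3.0% of all windows. TGAGTCA was found in Cd68 alone, at 2 places, and in 4.5% of all windows. The windows of the neighbours C1qb and C1qc are shown to set them side by side, and that of Ctss because it is the gene whose neocortex values stood apart most in the comparisons below. Letters run 5′ to 3′ on the strand of the gene, the start follows the last base, and capitals mark motif matches on either strand. The windows lie at chr4:136886201-136886450 (C1qb) and chr4:136892915-136893164 (C1qc), both on the minus strand, and at chr3:95526536-95526785 on the plus strand (Ctss).
C1qb: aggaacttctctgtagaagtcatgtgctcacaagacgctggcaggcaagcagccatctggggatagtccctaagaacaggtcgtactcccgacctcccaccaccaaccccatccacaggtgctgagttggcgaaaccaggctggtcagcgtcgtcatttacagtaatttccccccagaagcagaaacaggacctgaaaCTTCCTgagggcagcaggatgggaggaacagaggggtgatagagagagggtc
C1qc: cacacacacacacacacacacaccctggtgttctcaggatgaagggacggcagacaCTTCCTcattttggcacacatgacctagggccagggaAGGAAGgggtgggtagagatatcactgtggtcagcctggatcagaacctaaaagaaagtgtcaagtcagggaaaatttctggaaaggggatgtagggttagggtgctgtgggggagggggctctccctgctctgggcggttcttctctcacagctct
Ctss: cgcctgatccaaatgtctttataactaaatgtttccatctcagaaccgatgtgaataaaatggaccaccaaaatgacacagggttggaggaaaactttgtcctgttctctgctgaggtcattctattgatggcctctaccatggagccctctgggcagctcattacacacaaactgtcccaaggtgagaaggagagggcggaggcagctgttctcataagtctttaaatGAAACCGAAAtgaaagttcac
In C1qb the match lies on the opposite strand, from position -52 to -47 counted back from the start. C1qc holds 1 match on each strand, the nearer from -157 to -152. The match of Ctss lies from -21 to -12, next to the start. No array value bears on binding at these letters.

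The values are MAS5 signals, the output of the older Affymetrix algorithm that subtracts mismatch probes. They were analysed as log2(signal + 30.7). Differences are knockout minus wild-type, S1P2-KO minus S1P3-KO, hippocampus minus neocortex and female minus male on that scale, with standard errors, and p-values come from limma with Benjamini-Hochberg adjustment over 8534 probe sets. The arrays had been scaled to a common level, with trimmed means between 1000.56 and 1000.66. The arrays carry control sets for either end of Gapdh and of beta-actin mRNA, and the log2 of 3' over 5' signal, averaged over both, is called the 3'/5' ratio here. It rises when RNA is degraded or copied short. The ratio lay between 0.01 and 0.61 on all neocortex arrays. In hippocampus 3 arrays were above 1. They were S1P2-KO replicate 7 (1.37), S1P3-KO replicate 5 (4.46) and wild-type replicate 4 (1.20). S1P3-KO replicate 5 also had the lowest median correlation with the other hippocampus arrays, 0.85 against 0.926 or more on every other array. Results that rest on these arrays are given with and without them.

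The labels were checked through the deleted genes. The S1pr2 signal averaged 628.4 ± 147.4 in S1P2-KO and 672.4 ± 137.4 in wild-type neocortex, and 541.5 ± 144.1 against 648.8 ± 173.0 in hippocampus (SD, n = 10 each). S1pr3 averaged 729.3 ± 242.3 in S1P3-KO (n = 5) and 859.0 ± 168.1 in wild-type neocortex (n = 10), and 495.0 ± 42.7 against 826.8 ± 203.8 in hippocampus. None of these differences passed the threshold (the smallest adjusted p of limma was 0.16), and whether the probe sets lie in the deleted parts is not known here. The genotypes rest on the sample titles.

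C1q transcripts were measured well above the floor of the arrays. The C1qa probe set was brighter than 90.4% of all probe sets, with group means between 2719.3 and 3309.3. C1qc was brighter than 90.8% and the brighter C1qb set than 85.3%. The weaker second set of C1qb averaged 282.5 and was noisy. Among the other genes, Ctss was brighter than 91.8% of probe sets, Csf1r than 86.6%, Laptm5 than 79.7%, Tyrobp than 67.6% and Cd68 than 58.1%. A signal also depends on the probes, so these ranks do not order the transcripts by abundance. Fcer1g was close to the floor with both sets, at mean signals of 55.4 and 53.9 over the 50 arrays, as was the second Cd68 set at 21.8. These 3 probe sets fell below the filter on dim values, which left 11 probe sets of 8 genes in the tests. The group means of each of these 11 lay at or above 219.7 in all 6 groups, against a filter at 132.6, so none passed through one group alone.

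Other microglial markers were also measured. Cx3cr1, the fractalkine receptor, averaged 677.3 ± 83.3 in S1P2-KO, 613.3 ± 165.9 in S1P3-KO and 653.3 ± 192.4 in wild-type hippocampus. Aif1 (Iba1) averaged 102.4 ± 45.3, 190.0 ± 95.4 and 210.5 ± 62.8 in the same order of groups. Itgam, Ptprc and Lyz2 were below the filter. P2ry12, Tmem119 and Trem2 were among the listed markers, but no values of them are given here. Of the 49 listed microglia and macrophage genes 34 were on the array and 25 above the filter. Of 19 markers of blood leukocytes on the array 6 were above the filter, Cd4 (group means between 386.1 and 614.9) among them, whereas the T-cell marker Cd3e was near the floor (between 58.5 and 68.8). The vessel-associated macrophage marker Mrc1 was near the floor as well (between 52.1 and 109.7). Of 6 markers of those macrophages on the array 2 were above the filter, Stab1 (group means between 385.1 and 506.7) and Folr2 (between 189.5 and 331.4).

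**Figure D1:**
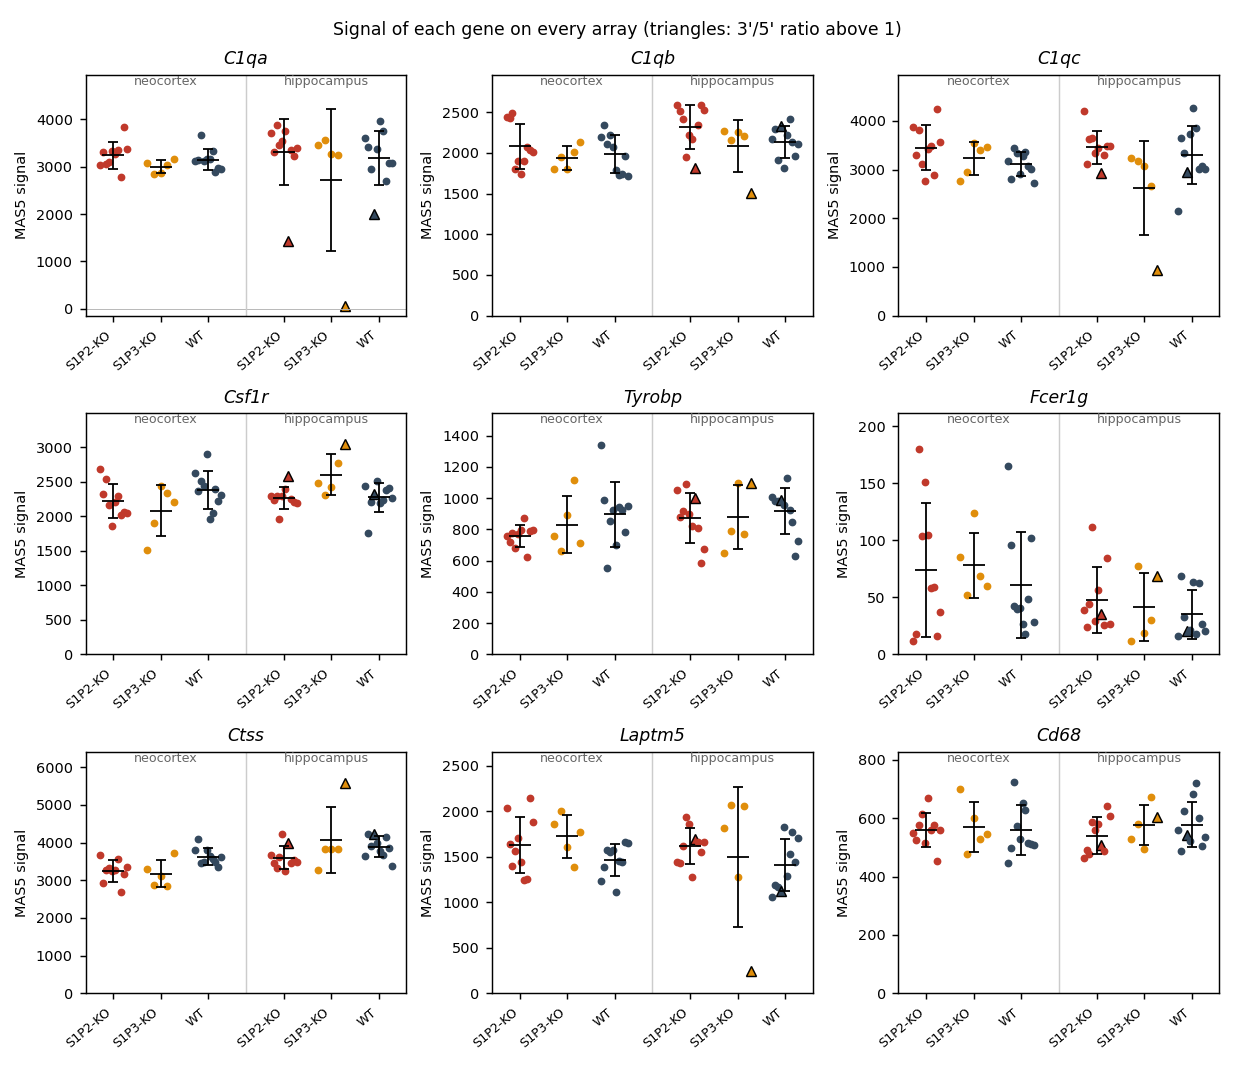
MAS5 signal (linear scale) of the brightest probe set of each of the 9 genes on all 50 arrays, by genotype, neocortex left and hippocampus right. Bars are mean ± SD (n = 10, 5 and 10 in each tissue), and outlined triangles are the 3 hippocampus arrays with a 3'/5' ratio above 1. Within each tissue the genotypes overlap for every gene, and the lowest C1qa values, 61.2, 1427.2 and 2000.9, belong to the 3 triangles.

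The first comparison asks whether the loss of either receptor, with or without seizures, changed these microglial transcripts. In neocortex the brighter sets of the 3 C1q chains differed from wild-type by between -0.07 and 0.14. None of the 8 genes passed the threshold in S1P2-KO or S1P3-KO neocortex, against 0% of the 8534 probe sets in either comparison (limma). At an unadjusted p below 0.05, 1 of the 8 genes was reached in each knockout (Ctss in both), against 8.74% of all probe sets for S1P2-KO and 10.5% for S1P3-KO. The median difference of the 8 genes was 0.02 for S1P2-KO (5 higher, 3 lower) and -0.04 for S1P3-KO (3 higher, 5 lower), beside -0.01 and -0.00 over all probe sets.

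C1qa ran from 2776.7 to 3848.6 with a median of 3292.3 in S1P2-KO neocortex. It was 3075.0, 2841.1, 2877.1, 3041.1 and 3160.4 on the 5 S1P3-KO arrays, and ran from 2898.0 to 3671.9 with a median of 3129.95 in wild-type. All genotypes overlapped. The differences from wild-type were 0.04 ± 0.06 (95% interval -0.08 to 0.15, adjusted p = 0.88) for S1P2-KO and -0.07 ± 0.07 (-0.21 to 0.07, adjusted p = 0.79) for S1P3-KO.

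The brighter C1qb set ran from 1744.4 to 2494.2 (median 2025.0) in S1P2-KO neocortex and from 1711.6 to 2340.2 (median 2014.55) in wild-type, with 1798.3, 1944.1, 1806.6, 2006.5 and 2140.3 in S1P3-KO. Every S1P3-KO array lay inside the wild-type range. The differences were 0.07 ± 0.07 for S1P2-KO and -0.01 ± 0.09 for S1P3-KO. The weaker C1qb set gave -0.17 ± 0.20 and -0.59 ± 0.25 (adjusted p = 0.41), with S1P3-KO values of 350.9, 136.4, 204.0, 88.8 and 318.4. The 2 sets thus disagreed in size for S1P3-KO, and the spread of the weaker one was wide.

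C1qc had the largest positive difference among the C1q chains. It ran from 2766.0 to 4252.4 (median 3449.8) in S1P2-KO neocortex, and from 2732.2 to 3451.1 (median 3117.6) in wild-type. In S1P2-KO 5 of 10 arrays lay above every wild-type array, and the other arrays lay inside the wild-type range, and 2.94% of all probe sets had 5 or more above. The difference was 0.14 ± 0.07 (interval -0.01 to 0.29, adjusted p = 0.59). In S1P3-KO the values were 2768.6, 2951.3, 3543.9, 3401.7 and 3470.4, and the difference was 0.04 ± 0.09.

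For the receptor Csf1r the brighter set ran from 1860.8 to 2686.8 (median 2189.1) in S1P2-KO neocortex and from 1965.8 to 2906.9 (median 2382.4) in wild-type. The S1P3-KO values were 1520.6, 1909.9, 2437.5, 2337.8 and 2209.3, so that 2 of 5 lay below every wild-type array, as 2 or more did for 13.6% of all probe sets. The differences were -0.10 ± 0.08 and -0.20 ± 0.10 (adjusted p = 0.77 and 0.52), and the second Csf1r set gave -0.02 ± 0.12 and -0.09 ± 0.15. Without S1P3-KO replicate 1, the array at 1520.6, the S1P3-KO difference of the brighter set was -0.07 ± 0.10.

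Tyrobp ran from 621.3 to 872.5 (median 773.1) in S1P2-KO neocortex and from 552.9 to 1338.3 (median 924.6) in wild-type. The median of wild-type was above each of the 10 S1P2-KO values, all of which lay inside the wild-type range, a position that 1.78% of all probe sets shared (all arrays below the median). The difference was -0.21 ± 0.11 (interval -0.44 to 0.03, adjusted p = 0.62). S1P3-KO had 760.9, 664.5, 895.1, 1116.0 and 712.4, and a difference of -0.11 ± 0.14. Fcer1g, the other adaptor, ran from 11.5 to 180.1 in S1P2-KO and from 17.5 to 164.9 in wild-type. With no filter its brighter set gave 0.12 ± 0.29 for S1P2-KO and 0.38 ± 0.36 for S1P3-KO, too wide to place it.

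Ctss was the gene that stood apart most. It ran from 2699.3 to 3679.6 (median 3261.1) in S1P2-KO neocortex. In S1P3-KO it was 3309.1, 2877.5, 3101.0, 2858.8 and 3730.0, and in wild-type it ran from 3337.8 to 4102.9 (median 3584.2). In S1P2-KO 7 of 10 arrays lay below every wild-type array, as did 4 of 5 in S1P3-KO. That position was shared by 0.363% of probe sets (7 or more S1P2-KO arrays) and 0.879% (4 or more S1P3-KO arrays). Ctss was chosen for this remark after its values were seen, and both knockouts are set against the same wild-type arrays. The differences were -0.16 ± 0.06 for S1P2-KO (0.894-fold, interval 0.821 to 0.974, p = 0.012, adjusted p = 0.39) and -0.19 ± 0.07 for S1P3-KO (0.875-fold, interval 0.789 to 0.972, p = 0.014, adjusted p = 0.35). Neither passed the threshold.

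The 3'/5' ratio was lower in the knockout neocortices, with medians of 0.26 in S1P2-KO, 0.24 in S1P3-KO and 0.38 in wild-type. With the ratio as a covariate the Ctss differences were -0.20 ± 0.06 and -0.23 ± 0.08 (adjusted p = 0.37 and 0.21). The summed signal of the other microglia and macrophage genes had medians of 16686.4, 16678.5 and 16947.5 in S1P2-KO, S1P3-KO and wild-type neocortex. Its part in the Ctss values was not tested.

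The brighter Laptm5 set ran from 1243.3 to 2142.9 (median 1603.2) in S1P2-KO neocortex and from 1116.3 to 1659.5 (median 1502.85) in wild-type, with 1865.3, 2002.7, 1605.3, 1389.1 and 1774.6 in S1P3-KO. In S1P2-KO 4 of 10 and in S1P3-KO 3 of 5 arrays lay above every wild-type array, positions that 6.47% and 4.31% of all probe sets reached or passed. The differences were 0.14 ± 0.10 and 0.24 ± 0.12 (adjusted p = 0.71 and 0.49). The second Laptm5 set gave -0.09 ± 0.13 and 0.04 ± 0.16, the opposite sign for S1P2-KO. Cd68 averaged 559.7 ± 57.7 in S1P2-KO, 569.5 ± 84.3 in S1P3-KO and 558.5 ± 85.1 in wild-type neocortex, and its differences were 0.01 ± 0.10 and 0.03 ± 0.12.

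**Figure D2:**
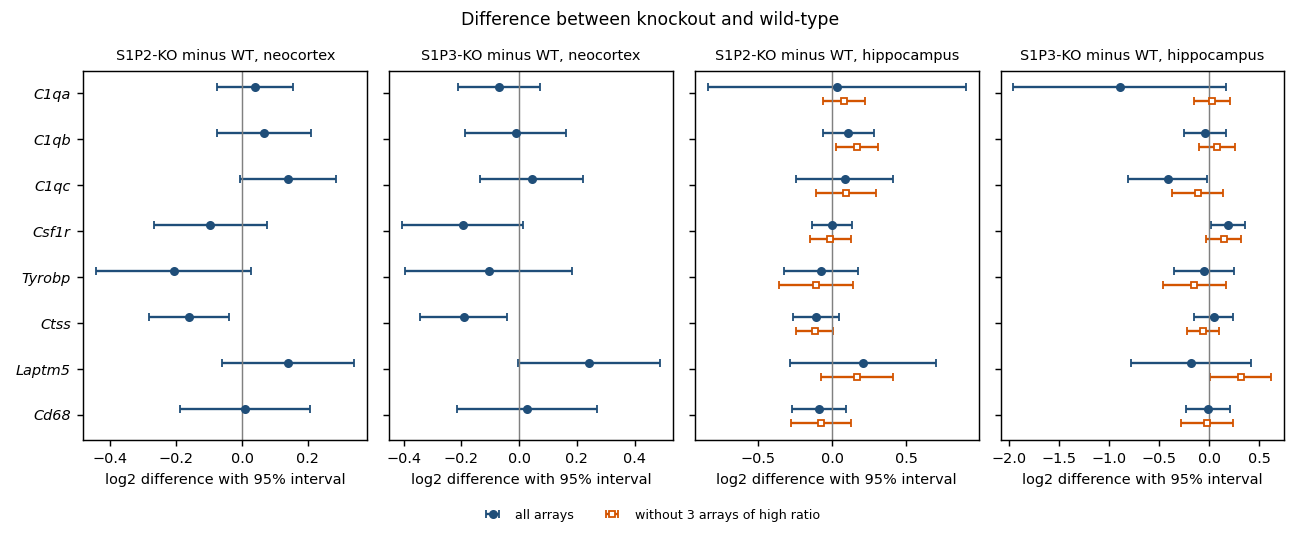
Log2 difference of each gene (brightest probe set) between knockout and wild-type with its 95% interval, from all arrays (filled circles) and, for hippocampus, without the 3 arrays of 3'/5' ratio above 1 (open squares). The horizontal scales differ between panels. The Ctss intervals of both neocortex panels lie below 0, and the wide C1qa intervals of hippocampus shrink without the 3 arrays.

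In hippocampus no member differed from wild-type beyond the threshold in either knockout. The share of all 8534 probe sets called was 0% for S1P2-KO and 0.0352% for S1P3-KO (limma). At an unadjusted p below 0.05 there were 0 of 8 genes in S1P2-KO and 2 of 8 in S1P3-KO (C1qc and Csf1r), against 5.54% and 9.54% of all probe sets. The median difference was 0.02 in S1P2-KO (5 higher, 3 lower) and -0.05 in S1P3-KO (2 higher, 6 lower), beside -0.00 and -0.01 over all probe sets. Without the 3 arrays of high 3'/5' ratio the medians were 0.04 and 0.01, with 4 genes higher and 4 lower in each.

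In S1P2-KO hippocampus the C1q chains lay slightly above wild-type and Ctss below it, none past the threshold. The 6 choroid plexus genes described below were also higher there, none past the threshold. C1qa ran from 1427.2 to 3886.7 (median 3426.3), against 2000.9 to 3958.0 (median 3222.2) in wild-type, and the difference was 0.03 ± 0.42. Without the array of high ratio in each group, the C1qa means were 3518.4 ± 223.3 and 3324.1 ± 408.1 (SD, n = 9 each). C1qb ran from 1815.1 to 2592.2 (median 2377.8) against 1815.2 to 2422.6 (median 2150.85), with 4 of 10 S1P2-KO arrays above every wild-type array, against 5.18% of all probe sets with 4 or more. Its difference was 0.11 ± 0.08, and 0.17 ± 0.07 (p = 0.023, adjusted p = 0.55) without the 3 arrays. C1qc differed by 0.08 ± 0.16, Csf1r by 0.00 ± 0.07, Tyrobp by -0.07 ± 0.12 and Cd68 by -0.09 ± 0.09. Ctss ran from 3241.6 to 4226.5 (median 3508.2) against 3376.7 to 4238.0 (median 3884.3), with 8 of 10 S1P2-KO values under the median of wild-type (share of all probe sets not counted). Its difference of -0.11 ± 0.08 (interval -0.27 to 0.05) had the sign seen in neocortex and an adjusted p of 0.93. Without the arrays of high ratio Ctss averaged 3557.6 ± 285.8 in S1P2-KO and 3844.2 ± 262.8 in wild-type (SD, n = 9 each). In the same setting C1qc averaged 3516.1 ± 305.7 and 3336.3 ± 618.8, and the brighter Laptm5 set 1607.6 ± 208.6 and 1445.1 ± 283.2. Laptm5 differed by 0.21 ± 0.24 with the brighter set and by 0.31 ± 0.16 with the second (adjusted p = 0.96 and 0.89).

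In S1P3-KO hippocampus the C1q genes depended on replicate 5. C1qa was 3461.1, 3565.1, 3263.3 and 3245.6 on replicates 1 to 4 and 61.2 on replicate 5. The first values lay inside the wild-type range, and the last was far below every other array of the series. C1qc was 3233.1, 3179.8, 3073.4, 2658.1 and 943.5, against 2142.7 to 4254.4 in wild-type (median 3197.9). C1qb was 2270.6, 2159.6, 2256.8, 2207.0 and 1512.6, against 1815.2 to 2422.6. Replicate 5 was the lowest array for all 3 chains.

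The fitted differences followed that array. C1qa gave -0.89 ± 0.52 (interval -1.96 to 0.17), C1qc -0.42 ± 0.19 (p = 0.040, adjusted p = 0.50) and C1qb -0.04 ± 0.10. Without the 3 arrays of high ratio they were 0.03 ± 0.09, -0.12 ± 0.12 and 0.08 ± 0.09. On S1P2-KO replicate 7 and wild-type replicate 4, the other arrays of high ratio, C1qa was 1427.2 and 2000.9 and was the lowest of its group on both. C1qc was 2927.0 and 2946.3 on these, the lowest of S1P2-KO but not of wild-type.

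Replicate 5 did not lower every member. Its Ctss signal, 5565.6, and its Csf1r signal, 3042.3, were the highest of all 50 arrays. The other S1P3-KO hippocampi had Ctss at 3261.6, 3839.3, 3833.3 and 3831.2 and Csf1r at 2477.5, 2314.7, 2422.2 and 2779.4. Tyrobp was 650.9, 789.6, 1094.7, 772.0 and 1100.2 on the 5 arrays, inside the wild-type range of 629.1 to 1127.6. The brighter Laptm5 set was 1814.1, 2074.1, 1276.7, 2063.2 and 244.5, whereas the second set had 1211.8 on replicate 5, inside the range of its group.

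Ctss differed from wild-type by 0.05 ± 0.09 in S1P3-KO hippocampus, and by -0.06 ± 0.08 without the 3 arrays. Csf1r differed by 0.18 ± 0.08 (interval 0.02 to 0.35, p = 0.033, adjusted p = 0.49), and by 0.14 ± 0.08 without the 3 arrays. With replicate 5 included, 5 of 5 arrays lay above the wild-type median, a position whose share of all probe sets was not counted. The second Csf1r set gave -0.08 ± 0.24. Laptm5 gave -0.18 ± 0.29 with all arrays and 0.32 ± 0.15 (p = 0.045, adjusted p = 0.64) without the 3, so its sign rested on replicate 5. The second Laptm5 set gave 0.16 ± 0.19 and 0.18 ± 0.21. Tyrobp and Cd68 differed by -0.05 ± 0.15 and -0.01 ± 0.11.

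**Figure D3:**
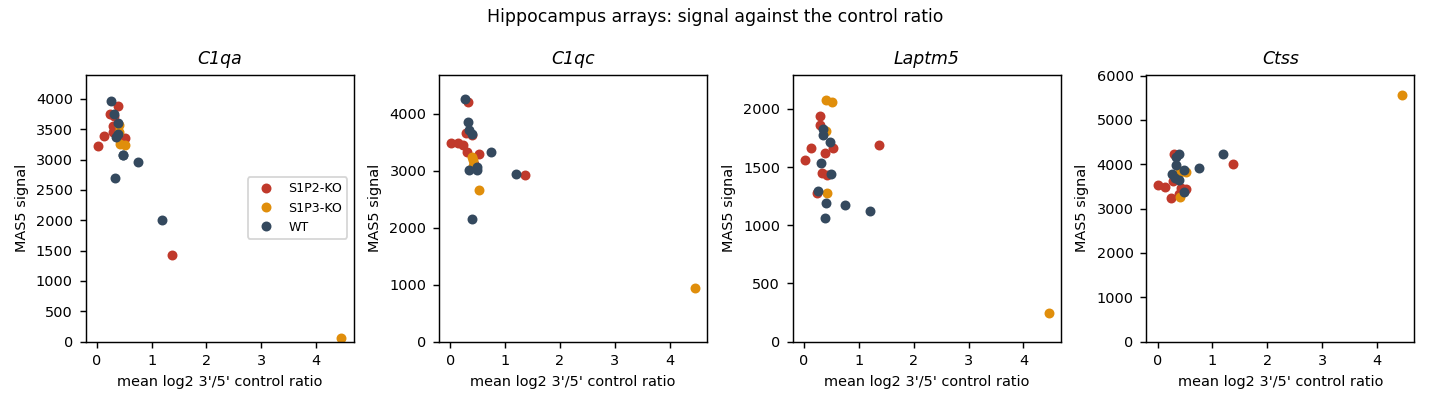
MAS5 signal of C1qa, C1qc, Laptm5 (brighter set) and Ctss on the 25 hippocampus arrays against the 3'/5' ratio (log2), coloured by genotype. The array at a ratio of 4.46 is lowest for C1qa, C1qc and Laptm5 and highest for Ctss, and C1qa is also low on the arrays at 1.20 and 1.37.

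Relations to the ratio were tested among the other arrays. Over 16 correlations (8 genes in 25 neocortex arrays and in 22 hippocampus arrays, group and sex means removed) none passed adjustment. The largest Pearson coefficient, that of Ctss in neocortex, was r = -0.41 (permutation p = 0.067, adjusted p = 0.56) and Spearman's rho = -0.18 (p = 0.42, adjusted p = 0.59), and r was -0.06 without the 2 arrays of most extreme ratio. The largest rank coefficient was that of C1qc in hippocampus (rho = -0.49, permutation p = 0.039, adjusted p = 0.37, and r = -0.22, p = 0.38, adjusted p = 0.56), with r = -0.38 without 2 arrays.

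The knockouts were also set against each other, S1P2-KO over S1P3-KO, since only S1P2-deficient mice are described with seizures. No member passed the threshold in either tissue, and 0% of all probe sets did (limma). The unadjusted p fell below 0.05 for 0 of 8 genes in neocortex and 2 of 8 in hippocampus (C1qc and Csf1r), against 5.93% and 11.5% of all probe sets. In neocortex differences ran from -0.10 ± 0.14 for Tyrobp to 0.11 ± 0.07 for C1qa, and Ctss differed by 0.03 ± 0.07 (interval -0.12 to 0.18). In hippocampus differences ran from -0.18 ± 0.08 for Csf1r (adjusted p = 0.40) to 0.93 ± 0.52 for C1qa (adjusted p = 0.48), and C1qc differed by 0.50 ± 0.19 (adjusted p = 0.33). Without the 3 arrays these were -0.15 ± 0.08, 0.05 ± 0.09 and 0.21 ± 0.12, and without S1P3-KO replicate 5 alone C1qa gave -0.07 ± 0.18. With all arrays the second Csf1r set gave 0.18 ± 0.24 in hippocampus, the opposite sign of the brighter set.

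The comparison of hippocampus with neocortex asks whether the microglial genes differ between the tissues in each genotype. Same-numbered arrays of the tissues were not paired in the fit. In S1P2-KO and in wild-type mice 0 of the 8 genes passed the threshold, against 14.7% of all probe sets called in S1P2-KO and 14.6% in wild-type (limma). At an unadjusted p below 0.05 there was 1 gene in S1P2-KO (Ctss) and 0 in wild-type, against 25.1% and 26.5% of all probe sets. In S1P3-KO mice 2 of the 8 genes were called, Ctss and Csf1r, both higher in hippocampus, against 12% of all probe sets. At an unadjusted p below 0.05 there were 3 (C1qc as well, lower in hippocampus), against 25.3%.

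In S1P2-KO mice Ctss differed by 0.15 ± 0.07 (interval 0.01 to 0.28, adjusted p = 0.14) and Tyrobp by 0.18 ± 0.12. C1qb differed by 0.15 ± 0.08 (adjusted p = 0.20), and by 0.19 ± 0.07 (adjusted p = 0.041) without the 3 arrays of high ratio, when it passed the threshold. The weaker C1qb set gave 0.11 ± 0.19. C1qa, C1qc, Csf1r, Laptm5 and Cd68 lay between -0.05 and 0.03. In wild-type mice the brighter C1qb set differed by 0.11 ± 0.08 and the weaker by -0.22 ± 0.19, and Ctss by 0.10 ± 0.07. C1qc differed by 0.06 ± 0.13, Tyrobp by 0.05 ± 0.12, Cd68 by 0.05 ± 0.09, C1qa by -0.00 ± 0.31, Csf1r by -0.06 ± 0.08 and Laptm5 by -0.07 ± 0.19. Without its array of high ratio, wild-type hippocampus had a C1qa median of 3372.4, against 3129.95 in wild-type neocortex. The second Laptm5 set was lower in wild-type hippocampus, at 1029.9 ± 217.8 against 1295.8 ± 269.6 (SD, n = 10 each), a difference of -0.32 ± 0.15 (adjusted p = 0.15).

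In S1P3-KO mice Ctss was 3261.6, 3839.3, 3833.3, 3831.2 and 5565.6 in hippocampus, against 3309.1, 2877.5, 3101.0, 2858.8 and 3730.0 in neocortex. The tissues overlapped, since the lowest hippocampus array lay below 2 neocortex arrays. The difference was 0.33 ± 0.09 (1.26-fold, interval 1.10 to 1.44, adjusted p = 0.014). Csf1r was 2477.5, 2314.7, 2422.2, 2779.4 and 3042.3 in hippocampus, against 1520.6, 1909.9, 2437.5, 2337.8 and 2209.3 in neocortex. Here too the tissues overlapped, and the difference was 0.32 ± 0.11 (1.25-fold, interval 1.08 to 1.45, adjusted p = 0.039).

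Both calls depended on single arrays. Without hippocampus replicate 5 Ctss gave 0.22 ± 0.08 (adjusted p = 0.12) and Csf1r 0.27 ± 0.11 (adjusted p = 0.14). Without neocortex replicate 2 they gave 0.29 ± 0.10 (adjusted p = 0.058) and 0.28 ± 0.11 (adjusted p = 0.11). Csf1r also lost its call without neocortex replicate 1 (0.19 ± 0.10, adjusted p = 0.26), hippocampus replicate 1 (0.32 ± 0.11, adjusted p = 0.052) and hippocampus replicate 4 (0.30 ± 0.11, adjusted p = 0.064). The second Csf1r set gave -0.14 ± 0.23. C1qa, C1qc and Laptm5 gave -0.83 ± 0.44, -0.40 ± 0.18 and -0.49 ± 0.27 with replicate 5, and 0.17 ± 0.09, -0.08 ± 0.12 and 0.04 ± 0.16 without the arrays of high ratio.

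**Figure D4:**
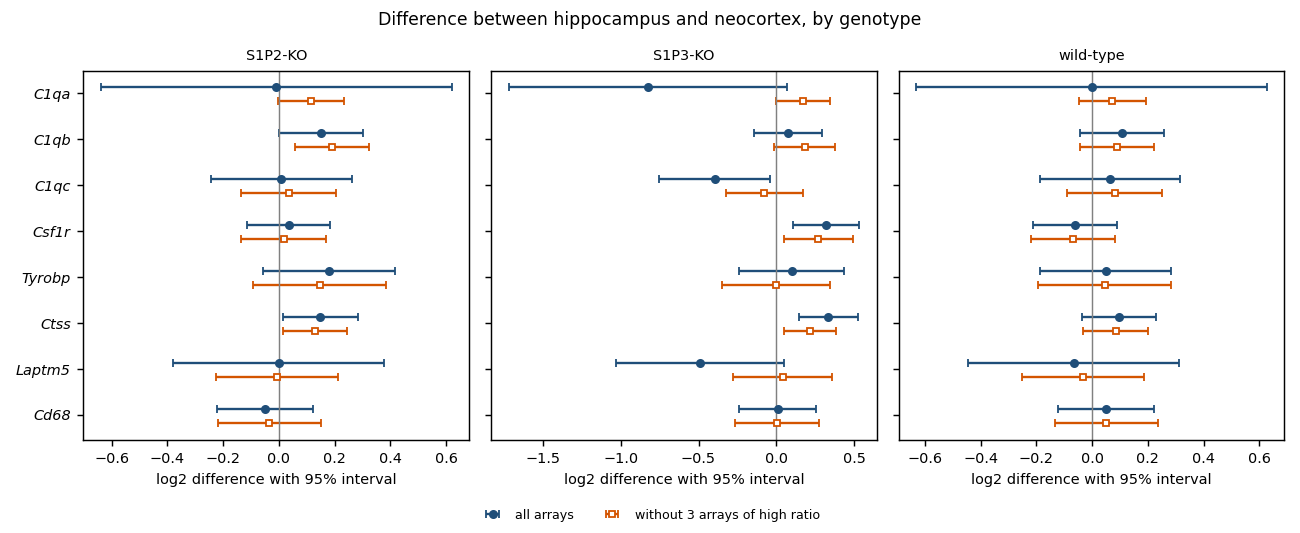
Log2 difference between hippocampus and neocortex of each gene (brightest probe set) with its 95% interval in S1P2-KO, S1P3-KO and wild-type mice, from all arrays (filled circles) and without the 3 hippocampus arrays of 3'/5' ratio above 1 (open squares). The horizontal scales differ between panels. In S1P3-KO the Ctss and Csf1r intervals lie above 0 under both settings, and C1qa is -0.83 with the 3 arrays and 0.17 without them.

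Whether a knockout difference itself differed between the tissues was tested as an interaction. No member passed the threshold, and 0% of all probe sets did for either knockout (limma). For S1P3-KO the unadjusted p was below 0.05 for 3 of the 8 genes, against 5.13% of all probe sets. These were Csf1r (0.38 ± 0.13, p = 0.0051, adjusted p = 0.87), Ctss (0.24 ± 0.12) and C1qc (-0.46 ± 0.22). Without the 3 arrays they were 0.34 ± 0.13, 0.13 ± 0.10 and -0.16 ± 0.15. Csf1r gave 0.25 ± 0.12 without S1P3-KO neocortex replicate 1, and its second set gave 0.01 ± 0.28 with all arrays. For S1P2-KO none of the 8 genes was below 0.05, against 2.6% of all probe sets, and estimates ran from -0.10 ± 0.12 for Cd68 to 0.13 ± 0.17 for Tyrobp.

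Between the sexes no member passed the threshold in either tissue, against 0.0586% of all probe sets in each (limma), and 1 gene in neocortex and 0 in hippocampus had an unadjusted p below 0.05, against 6.15% and 5.13% of all probe sets. That gene was C1qb. Its brighter set was 1711.6, 1727.2, 1737.1, 1786.0 and 1959.1 in the 5 wild-type females and 2070.0, 2115.0, 2197.2, 2219.9 and 2340.2 in the 5 wild-type males, ordered by size. The sexes did not overlap in wild-type neocortex, and 0.961% of all probe sets had every wild-type female below every male. In S1P2-KO neocortex the 5 females had 1744.4, 1906.6, 2014.5, 2035.5 and 2074.3 and the 5 males 1798.6, 1899.3, 2423.8, 2439.6 and 2494.2, which overlapped. In S1P3-KO the 3 females (1806.6, 2006.5 and 2140.3) averaged above the 2 males (1798.3 and 1944.1). Over the 3 genotypes females were lower by -0.17 ± 0.06 (p = 0.012, adjusted p = 0.78), and the weaker C1qb set gave -0.03 ± 0.18. In hippocampus the difference was -0.03 ± 0.08. The wild-type order was noticed after the values were seen.

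The genes were next compared with each other within a tissue, after group and sex means were removed. In neocortex none of 28 pairs passed adjustment over 56 pairs, and the coefficients ran from -0.50 (Tyrobp with Cd68) to 0.46 (C1qa with C1qc), with a median of 0.10. Even the neighbours C1qb and C1qc had Pearson's r = 0.36 (permutation p = 0.16, adjusted p = 0.45) and Spearman's rho = 0.36 (p = 0.11, adjusted p = 0.55), and r = 0.17 without 2 arrays. C1qa and C1qc had r = 0.46 (permutation p = 0.045, adjusted p = 0.21) and rho = 0.14 (p = 0.53, adjusted p = 0.81), and r fell to 0.08 without 2 arrays.

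In hippocampus 3 arrays stood apart by their 3'/5' ratio, so coefficients are given for the 22 arrays with a ratio below 1. None of 28 pairs passed adjustment there. The median was 0.03 and the highest was C1qa with Tyrobp (r = 0.51, permutation p = 0.023, adjusted p = 0.65, and rho = 0.52, p = 0.013, adjusted p = 0.35, with r = 0.47 without 2 arrays). Over the 25 arrays 2 pairs passed adjustment by Pearson's r, C1qa with C1qc and C1qa with Ctss, and 1 (C1qa with C1qc) by Spearman's rho. These were r = 0.36 and -0.25 over the 22.

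**Figure D5:**
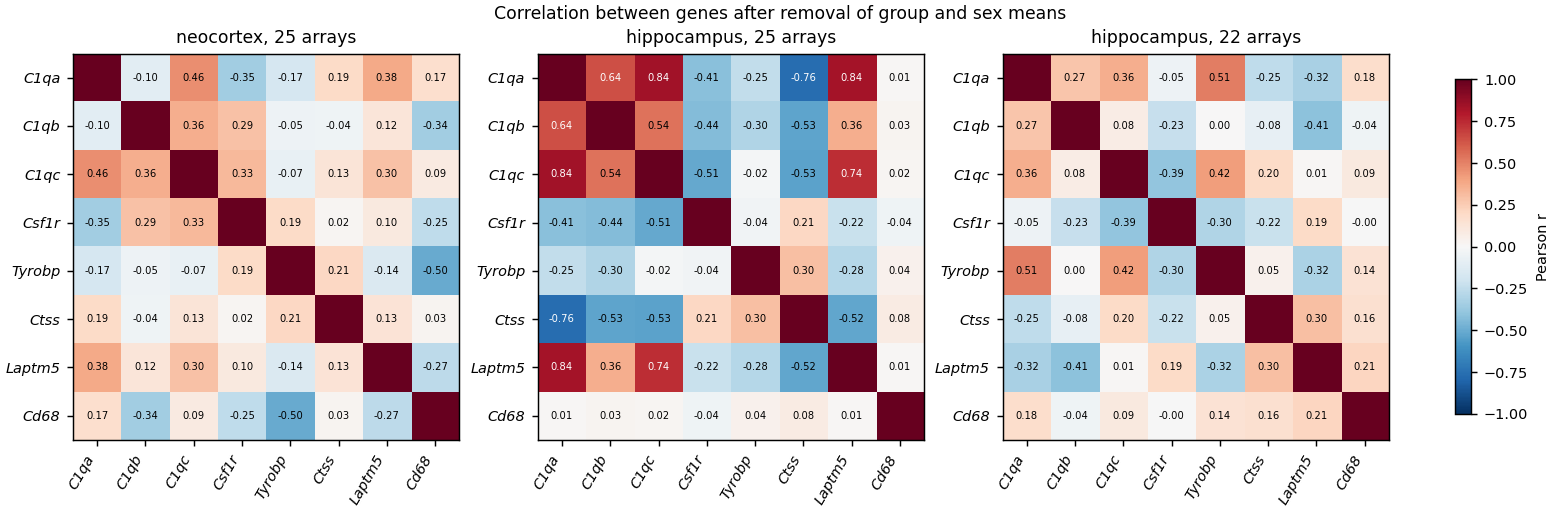
Pearson correlation between the 8 tested genes (brightest probe sets) across 25 neocortex arrays, 25 hippocampus arrays and the 22 hippocampus arrays with a 3'/5' ratio below 1, after removal of group and sex means. Blocks of strong positive and negative values in the middle panel, such as C1qa with C1qc and with Ctss, are weak in the right panel, and the left panel runs from -0.50 to 0.46 off the diagonal.

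The 5 other genes most like the mean of the 8, by Pearson's r over 25 arrays of each tissue averaged over tissues, were Kifc3, Eef2, Zfp276, Dohh and Cfl1, with mean r from 0.69 down to 0.62. Kifc3 encodes a kinesin motor, Eef2 an elongation factor of translation and Cfl1 an actin-binding protein. In the 22 hippocampus arrays their r was 0.52, 0.48, -0.14, 0.34 and 0.60. The 5 most alike without the 3 arrays were Adgrl1, Kifc3, Tubb4a, Cfl1 and Gnpda1, of which Kifc3 and Cfl1 were in both sets of 5. Of 25 other microglia and macrophage genes 1 was among the 100 most alike of 6341 genes (2 without the 3 arrays), and their median r was 0.02, beside -0.02 over all genes (0.12 beside -0.01 without the arrays of high ratio). All points share whole arrays and their scaling, and no test was made of these values.

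Among the partners of these genes, no listed gene of complement, microglia, Csf1r signalling, the lysosome or microglial activation passed the threshold in a knockout against wild-type. Of 13 other complement genes tested (36 listed), 8 were higher and 5 lower in S1P2-KO neocortex, 9 and 4 in S1P3-KO neocortex, 7 and 6 in S1P2-KO hippocampus and 4 and 9 in S1P3-KO hippocampus. The medians were 0.04, 0.02, 0.04 and -0.07 in that order. At an unadjusted p below 0.05 (limma) there were 0 higher and 0 lower, 0 and 1, 2 and 0, and 0 and 0. The shares of all probe sets were 8.74%, 10.5%, 5.54% and 9.54%. Among the complement genes of smallest p were Cd59a, an inhibitor of the membrane attack complex, with 0.30 ± 0.15 and 0.28 ± 0.14 in S1P2-KO neocortex and hippocampus, and C5ar1, a C5a receptor, with -0.58 ± 0.28 in S1P3-KO neocortex. C1qbp, a binding partner of C1q, gave 0.61 ± 0.27 in S1P2-KO hippocampus (adjusted p = 0.85).

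Of 25 other microglia and macrophage genes tested (49 listed), 9 were higher and 16 lower in S1P2-KO neocortex (median -0.07), 12 and 13 in S1P3-KO neocortex (-0.00), 10 and 15 in S1P2-KO hippocampus (-0.05) and 8 and 17 in S1P3-KO hippocampus (-0.12). Medians of all probe sets lay within 0.02 of 0 in each. Without the 3 arrays of high ratio the hippocampus counts were 8 and 17 (-0.08) and 9 and 16 (-0.09). At an unadjusted p below 0.05 there were 1 higher and 0 lower in S1P2-KO neocortex and 4 higher and 1 lower in S1P3-KO neocortex, against 8.74% and 10.5% of all probe sets. In hippocampus there were 0 higher and 3 lower in S1P2-KO and 0 higher and 1 lower in S1P3-KO, against 5.54% and 9.54%. Those of smallest p in neocortex were Mertk, a receptor for the uptake of dying cells (0.18 ± 0.08, adjusted p = 0.48), and Irf8 in S1P2-KO, and Gas6, a ligand of Mertk (0.21 ± 0.08, adjusted p = 0.37), and Irf8 in S1P3-KO. Irf8, a transcription factor of microglia, gave -0.35 ± 0.17 in S1P2-KO and -0.53 ± 0.21 in S1P3-KO neocortex (adjusted p = 0.58 and 0.37). Aif1 gave -0.88 ± 0.24 in S1P2-KO hippocampus (p = 0.0012, adjusted p = 0.75), from signals of 102.4 ± 45.3 and 210.5 ± 62.8 near the filter.

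Of 11 genes of Csf1r and adaptor signalling tested, 9 were higher and 2 lower in S1P2-KO neocortex, 7 and 4 in S1P3-KO neocortex, 7 and 4 in S1P2-KO hippocampus and 5 and 6 in S1P3-KO hippocampus. The medians were 0.08, 0.07, 0.05 and -0.02 in that order, and 48.4% and 49.6% of all probe sets were higher in the 2 neocortex comparisons. At an unadjusted p below 0.05 (limma) there were 2 higher and 1 lower, 1 and 1, 2 and 0, and 1 and 0. The shares of all probe sets were 8.74%, 10.5%, 5.54% and 9.54%. Grb2, which links activated receptors to Ras, gave 0.36 ± 0.10 in S1P2-KO and 0.61 ± 0.12 in S1P3-KO neocortex (adjusted p = 0.23 and 0.080). Of 25 lysosome genes 10 were higher and 15 lower in each of the 4 comparisons with wild-type, and Psap, the precursor of saposins, gave -0.92 ± 0.20 in S1P3-KO hippocampus (adjusted p = 0.081), and -0.81 ± 0.21 (adjusted p = 0.21) without the 3 arrays of high ratio. Of 13 genes of activated microglia 5, 8, 6 and 7 were higher in S1P2-KO neocortex, S1P3-KO neocortex, S1P2-KO hippocampus and S1P3-KO hippocampus. Of 8 astrocyte genes tested 4 were higher and 4 lower in S1P3-KO than in wild-type hippocampus (median 0.04, and -0.01 without the 3 arrays of high ratio). In S1P2-KO hippocampus 6 were higher and 2 lower (median 0.18, and 0.22 without those arrays). In neocortex 5 were higher and 3 lower in each knockout, with medians of 0.15 in S1P2-KO and 0.13 in S1P3-KO. At an unadjusted p below 0.05 (limma) there were 4 higher and 0 lower in S1P2-KO hippocampus, and 2 and 1 in S1P3-KO hippocampus. The shares of all probe sets were 5.54% and 9.54%. In neocortex there were 3 higher and 0 lower in S1P2-KO and 2 and 1 in S1P3-KO, against 8.74% and 10.5%. None of the 8 passed the threshold in S1P2-KO. In S1P3-KO hippocampus 1 of the 8, Gfap, was called, against 0.0352% of all probe sets. Gfap was higher there than in wild-type by 0.84 ± 0.14 (limma, adjusted p = 0.027). It gave 0.66 ± 0.13 without the 3 arrays and the call was lost (adjusted p = 0.068), and its part in the values of the microglial genes was not tested.

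Between tissues some partners passed the threshold, to be read against the 14.7%, 12% and 14.6% of all probe sets called in S1P2-KO, S1P3-KO and wild-type mice. Of the 13 complement genes 1 was called higher and 1 lower in hippocampus in S1P2-KO, 0 in S1P3-KO, and 1 higher in wild-type. Clu, an inhibitor of late complement, was higher in S1P2-KO by 0.30 ± 0.09 (adjusted p = 0.013) and in wild-type by 0.34 ± 0.09 (adjusted p = 0.0049). C1ra, which encodes a protease of the C1 complex, was lower in S1P2-KO hippocampus by -0.87 ± 0.31 (adjusted p = 0.048).

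Of the 25 other microglia and macrophage genes 1 was called higher and 0 lower in S1P2-KO, and 1 higher and 1 lower in each of S1P3-KO and wild-type mice. Cyba, a subunit of the phagocyte NADPH oxidase, was the one of S1P2-KO (0.59 ± 0.12, adjusted p = 0.00014), where 2 were called higher and 1 lower without the 3 arrays. Ly86, a microglial protein that pairs with a toll-like receptor homologue, was higher in S1P3-KO by 0.74 ± 0.23 (adjusted p = 0.024) and in wild-type by 0.59 ± 0.16 (adjusted p = 0.0068). Without the 3 arrays of high ratio the Ly86 difference was 0.58 ± 0.24 in S1P3-KO and its call was lost (adjusted p = 0.13). Coro1a, an actin-binding protein of leukocytes, was lower in hippocampus by -0.85 ± 0.20 in S1P3-KO (adjusted p = 0.0022) and by -0.45 ± 0.14 in wild-type (adjusted p = 0.021). Without those arrays it was lower by -0.47 ± 0.12 in S1P3-KO (adjusted p = 0.0079), a smaller difference that kept its call.

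Of the 11 genes of Csf1r and adaptor signalling 1 was called higher and 2 lower in S1P2-KO and in wild-type, and 0 higher and 2 lower in S1P3-KO. Csf1, the ligand of Csf1r, was higher in hippocampus by 0.38 ± 0.12 in S1P2-KO (adjusted p = 0.026) and by 0.38 ± 0.12 in wild-type mice (adjusted p = 0.024). Pik3r1, a regulatory subunit of phosphoinositide 3-kinase, was lower by -1.33 ± 0.19, -1.55 ± 0.27 and -1.25 ± 0.19 in S1P2-KO, S1P3-KO and wild-type mice. Sirpa, an inhibitory receptor of neurons and phagocytes, was lower by -0.34 ± 0.06, -0.32 ± 0.09 and -0.24 ± 0.06 in the same order (the largest adjusted p was 0.012).

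Of the 25 lysosome genes 4 were called higher and 1 lower in S1P2-KO, 2 and 1 in S1P3-KO, and 3 and 2 in wild-type. Cst3, the cathepsin inhibitor cystatin C, was higher by 0.24 ± 0.05, 0.31 ± 0.07 and 0.27 ± 0.05, and Cd63, a membrane protein of late endosomes, by 0.37 ± 0.07, 0.43 ± 0.10 and 0.46 ± 0.07 in S1P2-KO, S1P3-KO and wild-type. The one lower in S1P3-KO was Psap (-0.66 ± 0.22, adjusted p = 0.038), whose call was lost without the 3 arrays (-0.54 ± 0.22, adjusted p = 0.14). Of the 13 genes of activated microglia 3, 1 and 1 were called higher and 0 lower. Lpl, lipoprotein lipase, was higher in each genotype, by 0.93 ± 0.15, 1.20 ± 0.21 and 1.07 ± 0.15. Arrays of whole tissue do not tell which cells gave the signal of a listed gene, so these calls do not measure microglial activation.

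Choroid plexus is a tissue with its own macrophages that lies beside the hippocampus. Of its 6 listed genes tested, 6 were higher in hippocampus in S1P2-KO, 6 in S1P3-KO and 3 (with 3 lower) in wild-type, and 1 was called in each. That gene was Kl, higher by 3.03 ± 0.39 in S1P2-KO, 2.99 ± 0.56 in S1P3-KO and 2.96 ± 0.39 in wild-type mice. When the 3 arrays were left out, 3, 1 and 1 were called in these genotypes. The summed choroid plexus list ran from 3843.2 to 39971.2 in S1P2-KO, 4398.9 to 35939.5 in S1P3-KO and 4310.9 to 47161.6 in wild-type hippocampus, and from 5858.0 to 12991.9, 5195.0 to 6792.2 and 5276.3 to 9235.7 in the neocortex of the same genotypes. In hippocampus the medians of that sum were 17456.2 in S1P2-KO, 7633.7 in S1P3-KO and 8666.3 in wild-type. Against wild-type hippocampus 6 of the genes were higher and 0 lower in S1P2-KO (median 0.35), and 4 and 2 in S1P3-KO (0.06). None passed the threshold. In females 4 of the genes were higher and 2 lower in neocortex (median 0.05), and 0 and 6 in hippocampus (-0.76). At an unadjusted p below 0.05 (limma) there were 0 higher and 5 lower in female hippocampus, against 5.13% of all probe sets. No sex difference of the list passed the threshold. The part of choroid plexus in the tissue, genotype and sex differences of the microglial genes was not tested.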

How the data were processed

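RNA of neocortex and hippocampus was measured on 50 arrays, from TRIzol extracts of which 12 µg became biotin-labelled cRNA, per the labels' protocols. The authors deposited 1 linear intensity for each probe set on each array, and per the submitters' processing notes these are MAS5 signals, of a version not given in the sources used here. The deposited intensities are scaled already, and no detection calls came with them. Precision is limited by how many arrays each group has.

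Groups, sexes and replicate numbers come from the titles, in which replicates are described as biological. The design text names the S1P2-deficient mice in place of the S1P3-deficient ones and gives 5 of the first knockout and 10 of the second, so the titles were followed. Platform annotation gave 10855 probe sets 1 symbol, 396 several and 1237 none, and the last 2 kinds stayed unnamed. A gene stands by its probe set of highest mean level.

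Values are log2(signal + 30.7), the 10th percentile of all signals being 30.7, which understates changes of dim genes. Probe sets with a mean above the 30th percentile (132.6) on that scale were tested, 8534 after removal of 66 control sets. The models (limma 3.58.1, R 4.3.3, with trend) were fitted per tissue over 3 genotypes with sex, and over all 50 arrays for tissue contrasts and interactions, with a threshold of 0.05. The procedure was tested on simulated data. Correlations used 100000 permutations within groups. The members and lists were chosen with earlier results of these data known. Named are all members, up to 4 listed genes past the threshold or else the 2 of smallest p, the 5 genes most like the members, and the 2 receptor genes. Alternatives were the offset, the filter, quantile normalization, covariates, array weights, fewer arrays and a replicate block. The interaction and sex contrasts under alternatives, the correlations over 22 arrays, the listed genes without the arrays of high ratio and the correlations with the 3'/5' ratio were added after the data were seen. Deviations of same-numbered neocortex and hippocampus arrays had a median r of 0.09. Their r was over 0.1 in 12 of 25 pairs and positive in 10 of 10 S1P2-KO pairs, but not in every wild-type or S1P3-KO pair. Same-numbered knockout and wild-type arrays of a tissue had a median r of 0.01, over 0.1 in 7 of 30 pairs. Arrays of different number were not compared. The labels tie no number across tissues, so numbers were not taken as pairs in the main fits. These coefficients cannot decide whether same-numbered arrays came from the same mouse. The lowest r between tissues, -0.27, is shared by both male S1P3-KO pairs, since deviations from a mean of 2 arrays mirror each other. If tissues of the same mouse were used, the main tissue contrasts treated them as independent. The replicate block pairs them in those contrasts. The RefSeq tables of GRCm38.p6 gave neighbours and promoter windows.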

Additional observations from a re-analysis of the deposited data

Results flagged for a closer look

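Of 84 groups checked (14 probe sets in 6 groups), 8 held an array far from its nearest neighbour, where chance gives about 5%. All 8 lie in hippocampus. S1P3-KO replicate 5, the array of highest 3'/5' ratio, accounts for 4 of them, with C1qa at 61.2, C1qb at 1512.6 and C1qc at 943.5, each far below the other 4 arrays of the group, and Ctss at 5565.6, far above them. C1qa was also far below its group on S1P2-KO replicate 7, at 1427.2, where the ratio was 1.37. Fcer1g (the second set) was far above its group on wild-type replicate 4, at 135.5, where the ratio was 1.20. Csf1r was low on wild-type replicate 2, at 1763.3. The dim Cd68 set stood high on S1P2-KO replicate 1, at 75.2. The part of the ratio in these values was not tested.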

How the results depend on the processing

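No member call was made in a knockout against wild-type, between the knockouts, between sexes or in an interaction under any alternative run, and no result with a call reversed. Between tissues in S1P2-KO mice the count of called genes was 0 and became 1 (C1qb) with array weights (0.19 ± 0.06, adjusted p = 0.029) and without the arrays of high 3'/5' ratio. In S1P3-KO mice the count of 2 (Ctss and Csf1r) became 1 with no filter on dim probe sets, where Csf1r had an adjusted p of 0.053. It became 0 with the 3'/5' ratio as a covariate (Ctss 0.20 ± 0.09, adjusted p = 0.17, Csf1r 0.24 ± 0.11, adjusted p = 0.20), with array weights (adjusted p = 0.16 and 0.29) and without the arrays of high ratio. Leaving out 1 replicate gave between 0 and 2 called genes. The count was 0 without neocortex replicate 2 or hippocampus replicate 5, and 1 without neocortex replicate 1, hippocampus replicate 1 or hippocampus replicate 4. The cause was not tested. Of S1P3-KO over wild-type in hippocampus, C1qa ran from -1.19 to 0.11 and Laptm5 from -0.38 to 0.35 when 1 replicate was left out, the highest value of each without S1P3-KO replicate 5. Ctss in S1P2-KO neocortex kept its sign under the 31 alternatives, from -0.20 to -0.13, with adjusted p from 0.19 to 0.56, and in S1P3-KO under 26, from -0.25 to -0.15, with adjusted p from 0.21 to 0.49. With a replicate block the median difference of the members was 0.02 in S1P2-KO and -0.09 in S1P3-KO neocortex. In hippocampus it was 0.02 and -0.09, and no count of called members changed with the block. Between genotypes the block matched same-numbered arrays, which the labels do not tie, and it replaced the sex covariate. Some S1P3-KO females were thereby set against males of the other genotypes, so the S1P3-KO medians with the block are not adjusted for sex. Signals near the floor limit Fcer1g and the weaker set of Cd68, and a wide spread limits the weaker set of C1qb.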
